A study of Mus musculus with 20 samples.

Results

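The genes described here are 8 markers of peripheral glia and nerve, taken by gene symbol from the gene count table of the series: S100b, Sox10, Gfap, Prph, Th, Dbh, Npy and Uchl1, of 56258 genes in all. They were measured by bulk RNA sequencing of whole lymph nodes from Rag1-/- mice (B6.129S7-Rag1tm1Mom/J), which lack mature T and B cells, at 9 weeks of age. Nodes of 5 positions were sampled, the duodenal, jejunal, ileal and ceco-colonic gut-draining nodes and the skin-draining inguinal node as the non-gut reference, with 4 libraries each. Every group carries the same Rag1 allele, so the comparisons are between positions only, and no lymphocyte-replete group enters them. Whether a library stands for 1 animal, 1 node or a pool is not stated in the labels, so the p-values measure the spread between these libraries, which may be technical.

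Lymph nodes receive sympathetic and sensory nerve fibres, whose cell bodies lie outside the node, in ganglia. The axons run with vessels and in the capsule, wrapped by Schwann cells. Schwann cells and the glia of the gut wall depend on the transcription factor SOX10 and carry the calcium-binding protein S100B. GFAP is an intermediate filament of astrocytes, enteric glia and non-myelinating Schwann cells, and peripherin, encoded by Prph, is an intermediate filament of peripheral neurons. UCHL1 is a ubiquitin hydrolase used as a general marker of neurons and nerve fibres. Tyrosine hydroxylase (Th) and dopamine beta-hydroxylase (Dbh) make noradrenaline in sympathetic neurons, and neuropeptide Y (Npy) is released with it. Because the messenger RNA of a neuron lies mostly in its cell body, a tissue reached by axons alone can hold glial RNA with little neuronal RNA.

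The proximal promoters of 3 of the genes are given first because their genes followed different patterns: S100b was highest in the duodenal node, Prph was highest in the inguinal node, and Th was at the limit of detection. Each window runs from 250 bases before to 50 after the start in RefSeq on GRCm38.p6, 5' to 3' on the gene's own strand. The S100b window is chr10:76253586-76253885 on the plus strand, the Prph window chr15:99054924-99055223 on the plus strand and the Th window chr7:142899946-142900245 on the minus strand. Capitals mark the TATA word TATAAA in Prph, at position -31, and the cyclic AMP response word TGACGTCA in Th, at position -45.
S100b: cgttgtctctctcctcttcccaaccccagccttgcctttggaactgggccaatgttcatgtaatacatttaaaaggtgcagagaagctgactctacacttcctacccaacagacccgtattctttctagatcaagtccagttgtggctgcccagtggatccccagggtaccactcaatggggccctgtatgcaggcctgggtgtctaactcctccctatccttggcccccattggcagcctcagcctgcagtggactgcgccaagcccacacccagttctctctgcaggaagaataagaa
Prph: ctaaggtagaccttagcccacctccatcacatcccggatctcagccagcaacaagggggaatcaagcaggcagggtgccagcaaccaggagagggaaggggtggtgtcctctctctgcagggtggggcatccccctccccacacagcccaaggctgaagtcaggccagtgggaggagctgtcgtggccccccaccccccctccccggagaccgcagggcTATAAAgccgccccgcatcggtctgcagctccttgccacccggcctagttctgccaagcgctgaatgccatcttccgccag
Th: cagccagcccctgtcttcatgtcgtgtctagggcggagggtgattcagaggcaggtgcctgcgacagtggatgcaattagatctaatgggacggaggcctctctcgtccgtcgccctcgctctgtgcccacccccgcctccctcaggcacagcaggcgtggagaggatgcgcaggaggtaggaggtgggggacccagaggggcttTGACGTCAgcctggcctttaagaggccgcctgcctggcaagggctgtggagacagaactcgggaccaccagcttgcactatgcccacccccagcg
The SOX words ACAAAG and ACAATG, searched on both strands, were absent from the windows of all 7 genes that had one in the RefSeq table, S100b among them. They occur in 28.6% of the 32851 promoter windows of that table. TGACGTCA, which reads the same on both strands, occurs in 1.79% of them, and TATAAA on the gene's strand in 8.32%. The motifs do not overlap one another in the windows shown. A word match is a description of these letters and names no binding site.

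Library totals ran from 148232381 to 304588075 estimated counts. Levels are given on the counts-per-million scale (CPM) after TMM scaling of library sizes, and 3 counts correspond to 0.00976 to 0.0194 CPM. The tissue markers were present throughout: the 8 fibroblastic reticular genes summed to 3330 to 7090 CPM and the 6 pan-leukocyte genes to 2130 to 2980 CPM. The duodenal libraries were unlike one another. The 8 smooth muscle markers summed to 405, 1480, 1460 and 569 CPM in duodenal libraries 1 to 4. The same sum was 376 to 470 CPM for the jejunal node, 406 to 429 for the ileal, 530 to 589 for the ceco-colonic and 808 to 963 CPM for the inguinal node. The 10 pancreatic acinar markers summed to 31900 CPM in duodenal library 1 and 18000 CPM in library 2, against 5.9 to 86.1 CPM in all others. Adipocyte markers summed to 744 to 2480 CPM in jejunal and 867 to 1460 CPM in ileal libraries, against 193 to 572 in duodenal and 179 to 473 CPM in ceco-colonic ones. Inguinal libraries were uneven in them, at 940 CPM in library 1 and 187 to 353 CPM in the other 3. Calls that use the duodenal node were refitted without libraries 2 and 3, on account of their smooth muscle levels. These libraries were picked after those levels were seen. The duodenal mean of that refit rests on libraries 1 and 4 only. Library 1, with 31900 CPM of acinar markers, stays in it, so the refit does not set the pancreatic RNA aside. The part these other tissues play in the results was not tested. In a whole node, a lower value from fewer cells of a type cannot be told apart from one of less RNA per cell.

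Of the 8 genes, 6 passed the filter on low counts and were tested, while Th and Dbh did not. Among the 5 positions, 5 of the 6 differed at an adjusted p under 0.05 (edgeR's quasi-likelihood test, Benjamini-Hochberg adjustment over 29411 genes), where 35.7% of all genes tested did. These were S100b, Sox10, Prph, Npy and Uchl1, and the same 5 differed among the 4 gut positions, where 21.3% of all genes did. Without duodenal libraries 2 and 3, S100b, Sox10 and Prph were still called in both comparisons and Npy and Uchl1 were not. Gfap was called in neither, with or without these libraries. The pattern of each gene across the libraries was different, as the plot of levels by library shows.

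**Figure D1:**
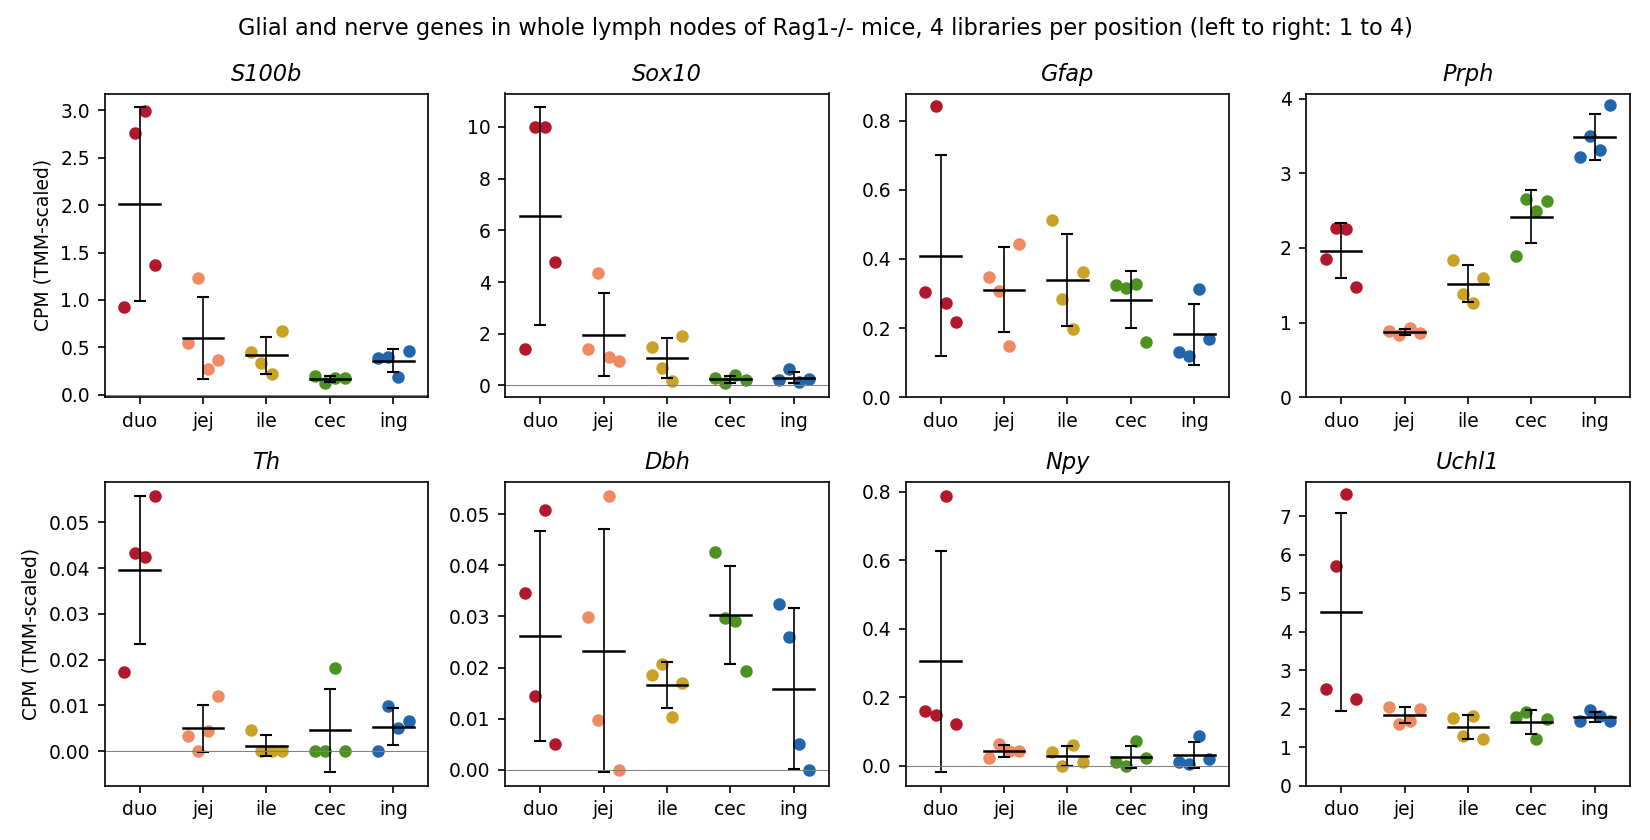
TMM-scaled CPM of the 8 genes (1 panel each, linear vertical axis) in the 5 positions, duodenal (duo), jejunal (jej), ileal (ile), ceco-colonic (cec) and inguinal (ing). Each point is a library, numbers 1 to 4 from left to right, the line is the mean and the bar the SD (n = 4). S100b and Sox10 are highest in duodenal libraries 2 and 3, Prph is highest in the inguinal node and lowest in the jejunal node, and Th and Dbh stay under 0.1 CPM.

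Among the glial genes, Sox10 varied most. Its level was 1.42, 10.01, 9.99 and 4.77 CPM in duodenal libraries 1 to 4. Jejunal libraries held 1.40, 4.36, 1.10 and 0.956 CPM, and ileal libraries 1.5, 0.686, 0.186 and 1.91 CPM. Ceco-colonic libraries held 0.267, 0.0772, 0.401 and 0.198 CPM and inguinal libraries 0.189, 0.628, 0.143 and 0.246 CPM. All 4 duodenal libraries exceeded all 8 ceco-colonic and inguinal libraries, and duodenal library 1 lay within the jejunal and ileal ranges. By mean the order was duodenal (6.55 ± 4.22, SD, n = 4), jejunal (1.95 ± 1.61), ileal (1.07 ± 0.780), inguinal (0.301 ± 0.222) and ceco-colonic (0.236 ± 0.135 CPM). No neighbours in this order passed the test (adjusted p = 0.162, 0.986, 0.0819 and 0.803 from the top down), and each pair of neighbours overlapped.

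Sox10 was higher in the 3 small intestinal nodes than in the ceco-colonic node by 3.31 ± 0.68 on the log2 scale (SE; adjusted p = 0.00168), and by 2.95 (adjusted p = 0.00414) without duodenal libraries 2 and 3. The duodenal node alone exceeded the ceco-colonic node by 4.76 ± 0.77 (adjusted p = 0.000229) and the inguinal node by 4.39 ± 0.76 (adjusted p = 0.000195). With these 2 duodenal libraries left out the differences were 3.69 (adjusted p = 0.00549) and 3.31 (adjusted p = 0.00484). The jejunal node was also higher than the ceco-colonic node, by 3.02 ± 0.73 (adjusted p = 0.00828), and than the inguinal node, by 2.64 ± 0.72 (adjusted p = 0.0106). Jejunal library 2 had the highest jejunal Sox10 level and also the highest level of Adipoq, the adipocyte hormone adiponectin, at 163 CPM against 43.3 to 48.5 CPM in the other jejunal libraries. With the adipocyte level as a covariate the jejunal differences were 1.44 (adjusted p = 0.382) and 0.80 (adjusted p = 0.593). The adipocyte level did not overlap between jejunal and ceco-colonic libraries, and of the inguinal libraries only library 1 reached the jejunal range. The covariate fits of Sox10 therefore cannot fully tell the adipocyte level from position. The mean of the 4 gut-draining nodes exceeded the inguinal node by 2.11 ± 0.63 (adjusted p = 0.0159), and by 1.84 (adjusted p = 0.03) without duodenal libraries 2 and 3. Taken singly, the ceco-colonic node differed from the inguinal node by -0.37 ± 0.74 (adjusted p = 0.803) and the ileal node by 1.78 ± 0.71 (adjusted p = 0.0819), neither of them called. The call for the mean was lost in limma-voom (adjusted p = 0.105), with the adipocyte covariate (0.98, adjusted p = 0.292) and without inguinal library 1, 3 or 4 (adjusted p = 0.059, 0.0652 and 0.0532).

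S100b had the same order of means as Sox10, over a narrower range. Duodenal libraries held 0.920, 2.76, 2.99 and 1.37 CPM and jejunal libraries 0.540, 1.23, 0.268 and 0.363 CPM. Ileal libraries held 0.446, 0.330, 0.217 and 0.674 CPM. Libraries 2 and 3 were again the highest of the duodenal node, and only jejunal library 2 reached into the duodenal range. Ceco-colonic libraries held 0.192, 0.119, 0.179 and 0.175 CPM and inguinal libraries 0.389, 0.397, 0.184 and 0.465 CPM. The ceco-colonic node was thus the lowest in S100b, and only inguinal library 3 fell within its range. The means ran from duodenal (2.01 ± 1.02, SD, n = 4) over jejunal (0.600 ± 0.434), ileal (0.417 ± 0.195) and inguinal (0.359 ± 0.122) to ceco-colonic (0.166 ± 0.0323 CPM). Only the top pair passed the test (adjusted p = 0.0358), while the next 3 pairs did not (adjusted p = 0.986, 0.811 and 0.122).

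The duodenal level of S100b exceeded the ceco-colonic level by 3.59 ± 0.49 on the log2 scale (adjusted p = 3.33e-05). It exceeded the inguinal level by 2.49 ± 0.46 (adjusted p = 0.000358), the ileal level by 2.28 ± 0.45 (adjusted p = 0.0028) and the jejunal level by 1.75 ± 0.44 (adjusted p = 0.0358). When duodenal libraries 2 and 3 were left out, the calls against the ceco-colonic (2.78, adjusted p = 0.0012) and inguinal nodes (1.68, adjusted p = 0.0177) were kept. Those against the ileal (1.47, adjusted p = 0.0638) and jejunal nodes (0.95, adjusted p = 0.333) were lost. The jejunal node exceeded the ceco-colonic node in S100b by 1.84 ± 0.48 (adjusted p = 0.0126). That difference was 1.23 (adjusted p = 0.0891) without jejunal library 2 and 0.58 (adjusted p = 0.551) with the adipocyte covariate. The adipocyte level does not overlap between these positions, so the covariate fit cannot tell it from position. Between gut-draining and inguinal nodes the difference of 0.59 ± 0.37 did not pass the test (adjusted p = 0.282).

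Across the 20 libraries the log2 levels of S100b and Sox10 had a Pearson correlation of 0.914 and a Spearman correlation of 0.857. Over the 16 libraries other than the duodenal ones the values were 0.823 and 0.738, and over the 16 gut libraries 0.956 and 0.953. These are descriptions of libraries that share positions and the scaling to one total, and carry no test. S100b overlaps the opposite-strand gene Dip2a by 1731 bases in the GENCODE M21 annotation, and without a stated strand setting their reads cannot be told apart there. Dip2a itself averaged 31.7 ± 1.91 CPM in duodenal and 34.0 ± 3.18 CPM in ceco-colonic libraries (SD, n = 4), a log2 difference of -0.10 ± 0.08 (SE; adjusted p = 0.413).

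**Figure D2:**
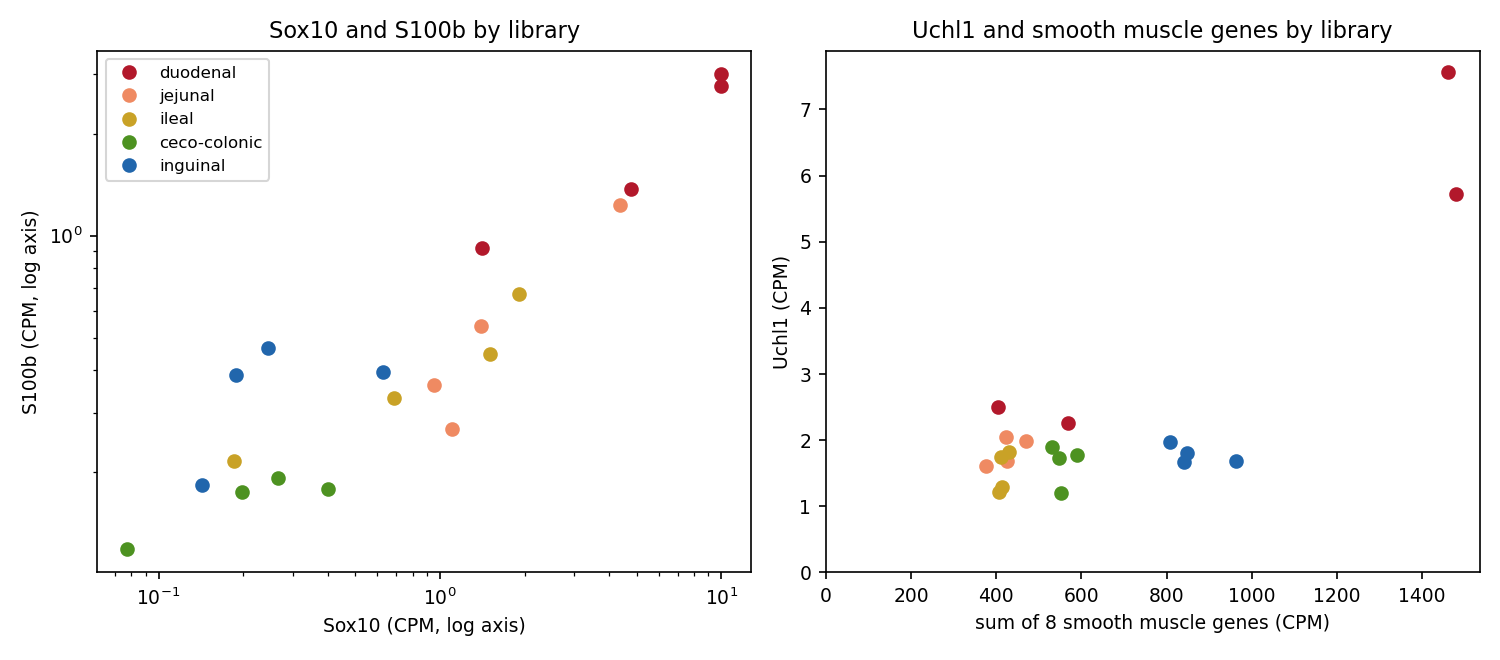
Left, S100b against Sox10 (CPM, both axes logarithmic); right, Uchl1 against the sum of the 8 smooth muscle markers (CPM). Each point is 1 of the 20 libraries, coloured by position. S100b and Sox10 vary together over the gut libraries (Pearson 0.956, n = 16), while the inguinal libraries hold 0.184 to 0.465 CPM of S100b at 0.143 to 0.628 CPM of Sox10; duodenal libraries 2 and 3 stand apart in both smooth muscle genes and Uchl1.

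Gfap was low and did not separate the positions. Its libraries held 0.305, 0.841, 0.271 and 0.218 CPM in the duodenal node, 0.348, 0.306, 0.147 and 0.442 in the jejunal node and 0.511, 0.284, 0.196 and 0.362 CPM in the ileal node. Ceco-colonic libraries held 0.325, 0.315, 0.328 and 0.159 CPM and inguinal libraries 0.130, 0.120, 0.311 and 0.168 CPM. The highest value was that of duodenal library 2, and the ranges of all 5 positions overlapped. By mean the order was duodenal, ileal, jejunal, ceco-colonic and inguinal, and no neighbours passed the test (adjusted p = 0.716, 0.996, 0.911 and 0.378). Gut-draining nodes exceeded the inguinal node by 0.87 ± 0.37 on the log2 scale, which missed the threshold (adjusted p = 0.0925). When transcript estimates were summed without length scaling, the difference was 1.57 (adjusted p = 0.00375), in DESeq2 it was 0.86 (adjusted p = 0.044), and without inguinal library 3 it was 1.26 (adjusted p = 0.0361). The longest transcript, Gfap-201, took 90.1% of the gene's estimated counts in duodenal libraries and 62.8% in inguinal ones, with 77.1%, 71.5% and 67.7% in the jejunal, ileal and ceco-colonic nodes. Gfap overlaps the opposite-strand gene Gm26668 by 13577 bases, and reads there cannot be assigned to a strand.

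The neuronal filament gene Prph was highest where Sox10 was low. Inguinal libraries held 3.22, 3.5, 3.31 and 3.92 CPM and ceco-colonic libraries 1.90, 2.66, 2.49 and 2.64 CPM. Duodenal libraries held 1.86, 2.26, 2.25 and 1.48 CPM, ileal libraries 1.83, 1.38, 1.27 and 1.60 CPM, and jejunal libraries 0.888, 0.833, 0.924 and 0.859 CPM. All 4 inguinal libraries exceeded all 16 gut libraries, and all 4 jejunal libraries lay under all others. The order by mean was inguinal (3.49 ± 0.308, SD, n = 4), ceco-colonic (2.42 ± 0.355), duodenal (1.96 ± 0.372), ileal (1.52 ± 0.249) and jejunal (0.876 ± 0.0390 CPM). The outer neighbours differed, inguinal from ceco-colonic (adjusted p = 0.0102) and ileal from jejunal (adjusted p = 0.0439). The inner neighbours overlapped and did not pass the test, ceco-colonic against duodenal (adjusted p = 0.168) and duodenal against ileal (adjusted p = 0.0892).

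Prph was lower than in the inguinal node in each gut position, by -1.99 ± 0.15 on the log2 scale in the jejunal (adjusted p = 4.22e-09), -1.2 ± 0.14 in the ileal (adjusted p = 2.85e-06), -0.83 ± 0.14 in the duodenal (adjusted p = 0.000198) and -0.53 ± 0.14 in the ceco-colonic node (adjusted p = 0.0102). The small intestinal nodes were lower than the ceco-colonic node by -0.81 ± 0.11 (adjusted p = 2.61e-05; -0.89, adjusted p = 1.08e-05 without duodenal libraries 2 and 3), the opposite sign to Sox10 and S100b. Within the small intestine the duodenal node exceeded the jejunal node by 1.16 ± 0.15 (adjusted p = 0.000684). These calls were kept without duodenal libraries 2 and 3, at -1.06 against the inguinal node (adjusted p = 0.000154) and 0.94 against the jejunal node (adjusted p = 0.00477). The jejunal node lay under the ileal node by -0.79 ± 0.15 (adjusted p = 0.0439), a call lost under 7 alternative settings besides single libraries left out. The transcript Prph-201 took 69.6% to 79.0% of the estimated counts in every position.

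Uchl1 stood out in the duodenal node alone. Its libraries held 2.50, 5.72, 7.57 and 2.26 CPM there, against 2.05, 1.61, 1.68 and 1.99 CPM in the jejunal and 1.75, 1.30, 1.81 and 1.22 CPM in the ileal node. Ceco-colonic libraries held 1.78, 1.90, 1.203 and 1.73 CPM and inguinal libraries 1.67, 1.97, 1.80 and 1.68 CPM. The 4 duodenal libraries lay above the other 16, but libraries 1 and 4 only just, and the 4 other positions overlapped throughout. By mean the order was duodenal (4.51 ± 2.58, SD, n = 4), jejunal (1.83 ± 0.218), inguinal (1.78 ± 0.139), ceco-colonic (1.65 ± 0.309) and ileal (1.52 ± 0.304 CPM), and after the top pair (adjusted p = 0.0172) no neighbours passed the test (adjusted p = 0.95, 0.848 and 0.864).

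The duodenal excess of Uchl1 was 1.30 ± 0.28 on the log2 scale over the jejunal node, 1.57 ± 0.29 over the ileal (adjusted p = 0.00164), 1.45 ± 0.28 over the ceco-colonic (adjusted p = 0.00123) and 1.34 ± 0.28 over the inguinal node (adjusted p = 0.00134). With libraries 2 and 3 left out it was 0.39 (adjusted p = 0.314), 0.66 (adjusted p = 0.0372), 0.54 (adjusted p = 0.0846) and 0.42 (adjusted p = 0.124), so only the ileal comparison kept its call. The contractile gene Cnn1, calponin of smooth muscle, was at 35.8 CPM in duodenal library 2 and 37.3 CPM in library 3, while libraries 1 and 4 had 0.443 and 4.41 CPM. Whether smooth muscle RNA has a part in the Uchl1 difference was not tested. The transcript Uchl1-201 took 87.4% to 97.0% of the gene's estimated counts in all positions. Its opposite-strand neighbour Uchl1os, which overlaps it by 408 bases, averaged 0.00931 to 0.0264 CPM.

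Of the sympathetic genes, only Npy passed the filter. Duodenal libraries held 0.161, 0.149, 0.788 and 0.122 CPM, which are 28, 31, 186 and 24 estimated counts. Jejunal libraries held 0.0232, 0.0641, 0.0447 and 0.0424 CPM, and ileal libraries 0.0418, 0, 0.0619 and 0.0113 CPM. Ceco-colonic libraries held 0.0107, 0, 0.0729 and 0.0233 CPM and inguinal libraries 0.0108, 0.0065, 0.0868 and 0.0194 CPM. All 4 duodenal libraries exceeded the other 16, and library 3 held more than the other 3 together. A count of 0 allows up to 3 counts, at most 0.0194 CPM here, and covers counting error only. The means of the other 4 positions ran from jejunal (0.0436) over inguinal (0.0309) and ileal (0.0287) to ceco-colonic (0.0267 CPM), and no neighbours passed the test (adjusted p = 0.786, 0.99 and 0.998).

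Npy in the duodenal node exceeded the ileal node by 3.37 ± 0.87 (adjusted p = 0.0141), the ceco-colonic node by 3.36 ± 0.85 (adjusted p = 0.00923) and the inguinal node by 3.34 ± 0.86 on the log2 scale (adjusted p = 0.00689). The difference from the jejunal node, 2.83 ± 0.82, did not pass the test (adjusted p = 0.0677). Without duodenal library 3 the 3 calls were lost, at 2.29 (adjusted p = 0.0755), 2.29 (adjusted p = 0.0765) and 2.25 (adjusted p = 0.0598). Without libraries 2 and 3 they were lost too, at 2.26 (adjusted p = 0.15), 2.27 (adjusted p = 0.161) and 2.21 (adjusted p = 0.117).

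Th and Dbh were at the limit of detection in libraries of this depth. Th had 3, 9, 10 and 11 estimated counts in duodenal libraries, 1, 0, 1 and 2 in jejunal, 1, 0, 0 and 0 in ileal, 0, 0, 5 and 0 in ceco-colonic and 0, 3, 1 and 1 in inguinal libraries. Of the libraries outside the duodenal node, only ceco-colonic library 3 held more than 3 counts of Th. Dbh had 6, 3, 12 and 1 counts in duodenal, 9, 2, 12 and 0 in jejunal, 4, 4, 2 and 3 in ileal, 8, 5, 8 and 5 in ceco-colonic and 6, 8, 1 and 0 in inguinal libraries. The ranges of Dbh overlapped in all positions, and with counts this low no difference in it can be read from them. The mean level of Th was 0.0397 ± 0.0161 CPM in the duodenal node (SD, n = 4), and neither gene was tested.

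On the scale of TPM, which divides by transcript length as well as by depth and so allows genes to be set side by side, Uchl1 led in the duodenal node (6.48 ± 4.16, SD, n = 4), ahead of Sox10 (3.58 ± 2.40), Prph (2.44 ± 0.589), S100b (2.05 ± 1.16) and Npy (1.13 ± 1.30 TPM). In the inguinal node Prph led instead (4.83 ± 0.483), ahead of Uchl1 (2.78 ± 0.232 TPM), and all the other 6 genes averaged under 0.4 TPM. Sox10 and Prph changed rank between the 2 nodes, and Uchl1 lay above the 3 glial genes in both. Sox10 averaged 0.178 TPM in the inguinal and 0.133 TPM in the ceco-colonic node, and Prph 1.10 TPM in the jejunal node. Th and Dbh averaged 0.0417 and 0.0143 TPM in the duodenal node, their levels lying below those of the other 6 genes. A second Sox10 transcript, Sox10-203, took 11.4% of the gene's estimated counts in the 4 duodenal libraries and 4.4% in the jejunal node, where 2 libraries held it. It was estimated at 0 in every ileal, ceco-colonic and inguinal library.

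Counted by comparison, the duodenal node accounted for most of the calls. Against the jejunal node 3 of the 6 genes tested were called, where 2.83% of all genes were. Against the ileal node 4 of 6 were called (14.6% of all genes), against the ceco-colonic node 4 of 6 (16.4%) and against the inguinal node 5 of 6 (25.3%). The counts without duodenal libraries 2 and 3 were 1, 1, 2 and 3. That refit called 2497 genes in all between duodenal and ceco-colonic nodes, against 4825 with all libraries. The shares above do not apply to the refit, so its counts stand without a share of all genes and are not read against one. The jejunal and ileal nodes differed in Prph alone, where 0.068% of all genes were called. Jejunal and ceco-colonic nodes differed in S100b, Sox10 and Prph (12.2% of all genes), and jejunal and inguinal nodes in Sox10 and Prph (20.9%). Ileal and ceco-colonic (12.8%), ileal and inguinal (22.6%) and ceco-colonic and inguinal nodes (21%) each differed in Prph alone. Gut-draining and inguinal nodes differed in Sox10 and Prph, in opposite directions (26.3% of all genes), and small intestinal and ceco-colonic nodes in S100b, Sox10 and Prph (16.6%). These comparisons share libraries, so their counts are not independent of one another.

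**Figure D3:**
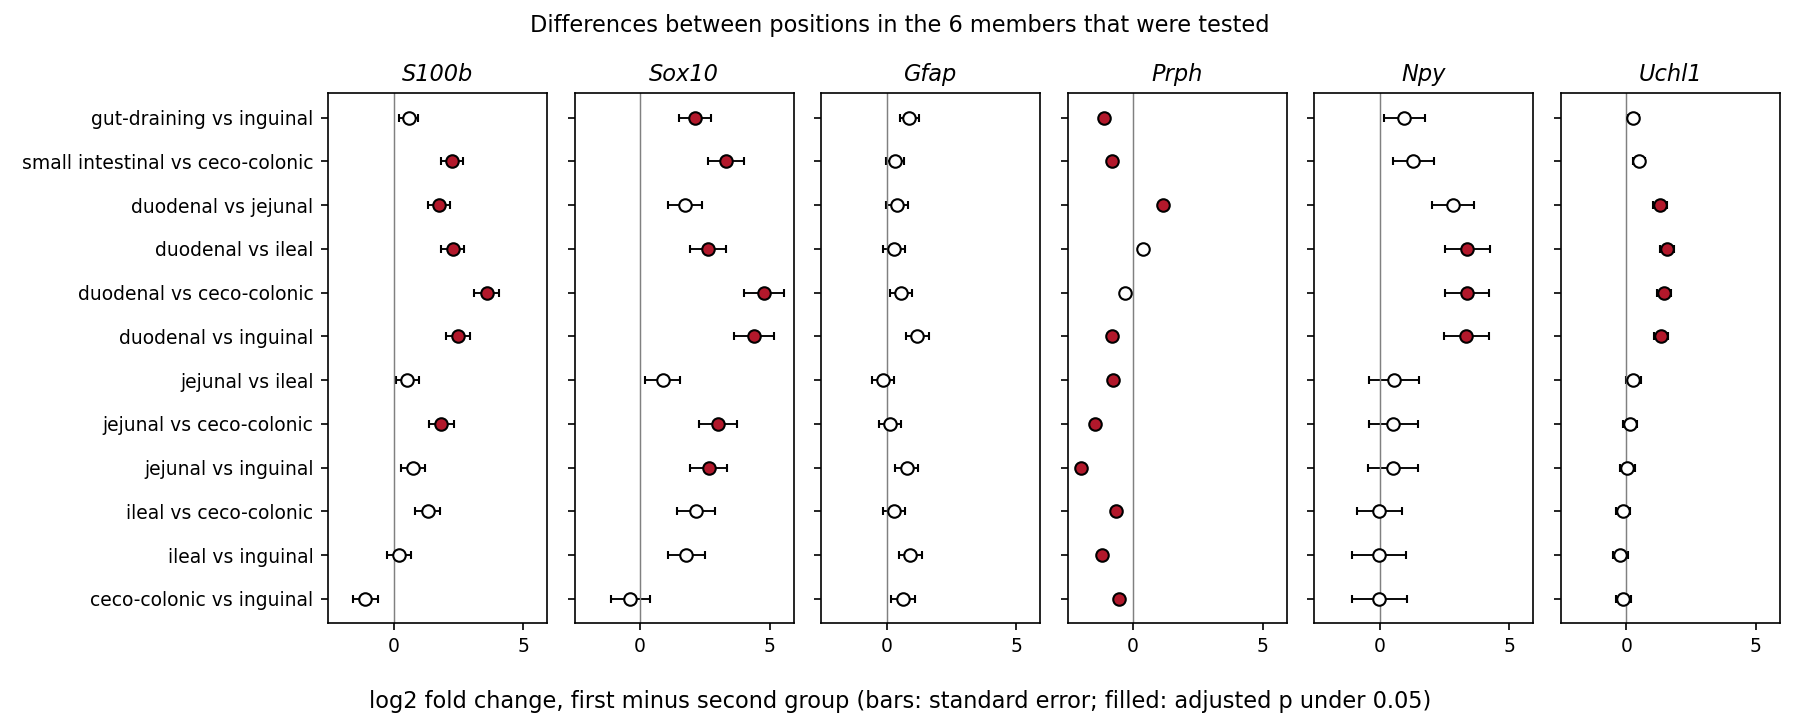
Log2 fold changes (first position minus second, horizontal axis) of the 6 genes tested in 12 comparisons, with bars of 1 SE from edgeR. Filled points have an adjusted p under 0.05 over 29411 genes. Prph lies to the left of 0 in 9 of its 10 calls, while the calls of S100b, Sox10, Npy and Uchl1 all lie to the right.

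Other Schwann cell genes were set beside S100b and Sox10 from a list of 27, of which 26 were tested and 22 differed among the 5 positions (35.7% of all genes). Between gut-draining and inguinal nodes 11 were higher and 4 lower in the gut (13.4% and 12.9% of all genes), with a median log2 difference of 0.27 against 0.00 over all genes. Between small intestinal and ceco-colonic nodes 12 were higher and 4 lower (8.9% and 7.74% of all genes), with a median of 0.84. Between the duodenal and ceco-colonic nodes 16 were higher and 3 lower (8.24% and 8.17% of all genes), with a median of 1.58 against 0.03 over all genes. Without duodenal libraries 2 and 3 the last count was 11 higher and 3 lower, with a median of 0.99. Over all genes that refit called 2497, against 4825 with all libraries. Of the list genes named below, those called between gut-draining and inguinal nodes were all called without these libraries as well. In the duodenal against ceco-colonic comparison 6 of the 8 smooth muscle markers were higher and 1 lower.

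Cdh19, a cadherin of the Schwann cell lineage named after its values were seen, held 3.51, 18.3, 19.4 and 8.81 CPM in duodenal and 0.378, 0.533, 0.449 and 0.291 CPM in inguinal libraries. The ordering of the duodenal libraries was that of S100b, with 2 and 3 the highest and 1 the lowest. Cdh19 in the duodenal node exceeded the ceco-colonic node by 5.18 ± 0.70 on the log2 scale (adjusted p = 3.08e-05), and by 4.17 (adjusted p = 0.000615) without libraries 2 and 3. Sox2, a transcription factor of immature glia, had the highest difference of the list between gut-draining and inguinal nodes (2.67 ± 0.82, adjusted p = 0.0193), and Cldn19, a claudin of myelinating Schwann cells, the lowest (-2.78 ± 0.52, adjusted p = 0.000352). Scn7a, a sodium channel of non-myelinating Schwann cells, had the smallest p among the 5 positions (adjusted p = 1.95e-06).

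Some myelin genes behaved differently in 1 inguinal library. Cldn19 (1.45 CPM) and the myelin gene Prx (7.78 CPM) were highest of all 20 libraries in inguinal library 2, whose Sox10 was 0.628 CPM, and both were singled out after their values were seen. Mbp, encoding myelin basic protein, was higher in gut-draining than in inguinal nodes by 0.34 ± 0.07 (adjusted p = 0.000513). It did not follow Sox10 within the gut, with 128 to 144 CPM in the ceco-colonic node, the lowest in Sox10 by mean. Its small intestinal against ceco-colonic difference was -0.11 (adjusted p = 0.296, not called). The ileal node lay under the ceco-colonic node in Mbp by -0.25 ± 0.08 (adjusted p = 0.0491). Ngfr, the low-affinity neurotrophin receptor of Schwann cells and of reticular stroma, ran against the glial genes, lower in small intestinal than in ceco-colonic nodes by -0.78 ± 0.11 (adjusted p = 2.58e-05).

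**Figure D4:**
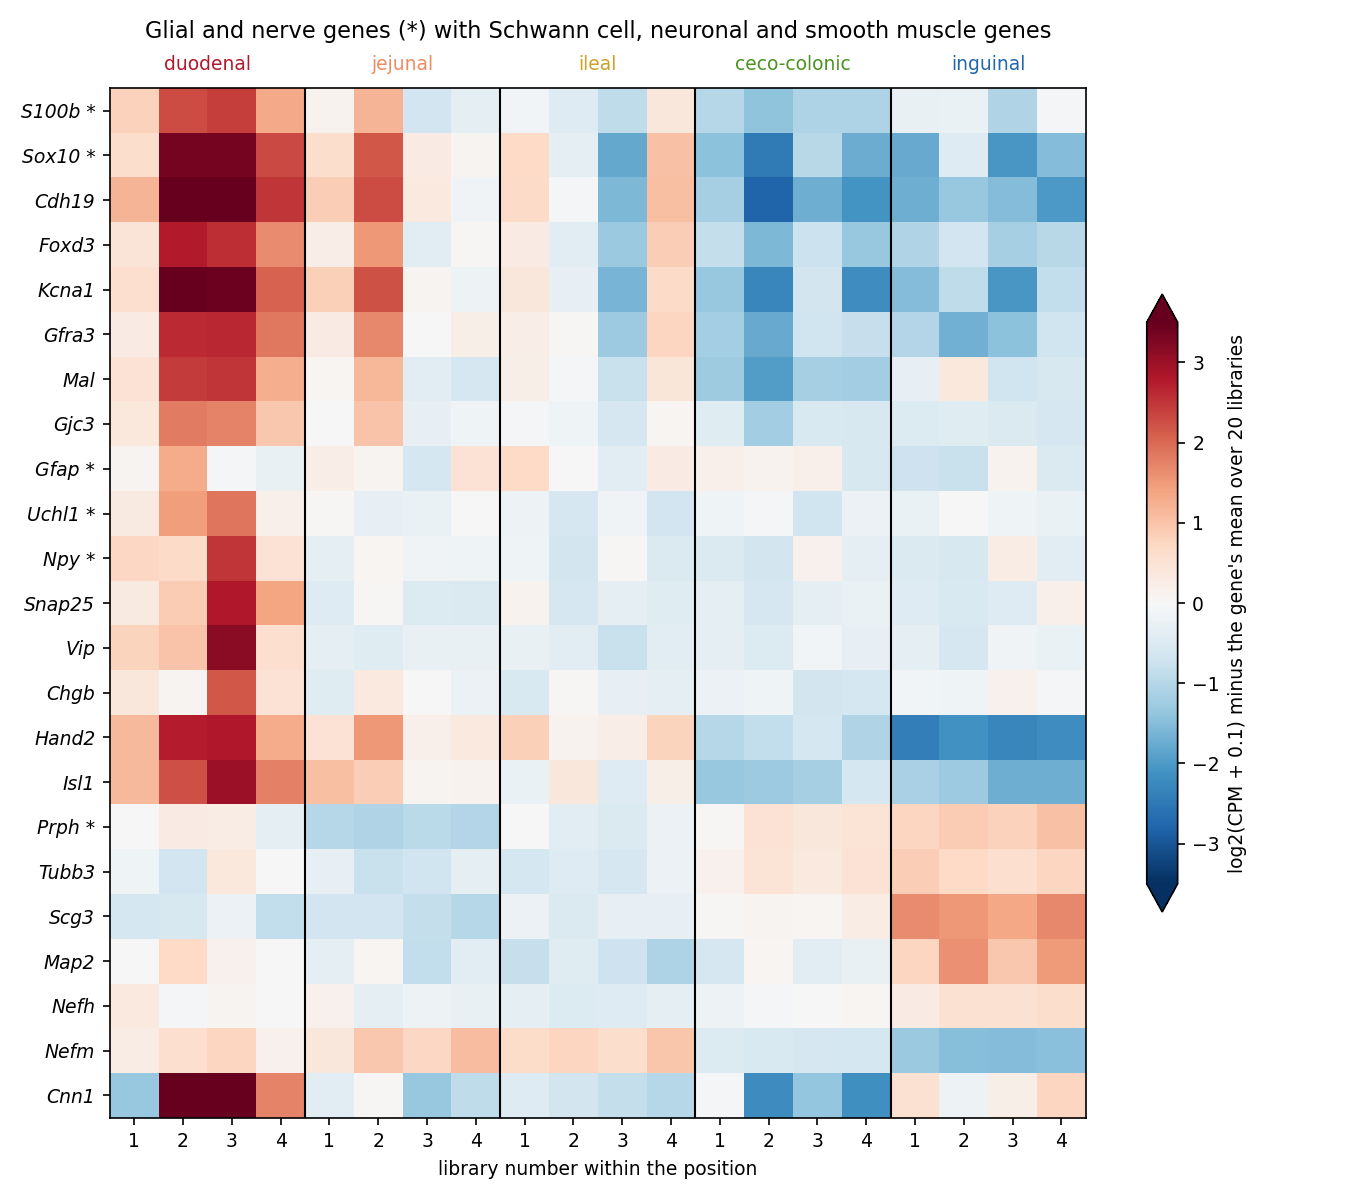
Log2(CPM + 0.1) of each gene minus its mean over the 20 libraries, colours saturating at 3.5, columns by position and library number. Rows marked with an asterisk are 6 of the 8 genes and the others come from the Schwann cell, neuronal and smooth muscle lists, some of them chosen after their values were seen. The glial rows from S100b to Gjc3 are highest in duodenal libraries 2 and 3 and next in library 4 and jejunal library 2; Snap25, Vip and Npy are highest in duodenal library 3, and Prph, Tubb3, Scg3 and Map2 in the inguinal libraries.

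Of 38 neuronal genes, 31 were tested and 25 differed among the 5 positions (35.7% of all genes), without one shared direction. Gut-draining nodes were higher than the inguinal node in 7 and lower in 8 (13.4% and 12.9% of all genes; median log2 difference -0.02). Small intestinal nodes were higher than the ceco-colonic node in 7 and lower in 5 (8.9% and 7.74% of all genes). The duodenal node was higher than the ceco-colonic node in 12 and lower in 1 (8.24% and 8.17% of all genes; median 0.58). Without duodenal libraries 2 and 3 the last count was 10 and 1, in a refit that called 2497 of all genes, against 4825 with all libraries. Like Prph, the neuronal tubulin gene Tubb3 was lower in gut-draining than in inguinal nodes (-0.94 ± 0.14, adjusted p = 2.15e-05), and so was Elavl4, a neuronal RNA-binding protein gene (-1.54 ± 0.30, adjusted p = 0.000622). Scg3, a granin of secretory granules, had the smallest p of the list (adjusted p = 1.46e-11), at 11.7 to 14.7 CPM in inguinal and 2.23 to 5.43 CPM in gut libraries. Scg2, another granin, had the lowest difference between gut-draining and inguinal nodes (-2.12 ± 0.34, adjusted p = 6.46e-05).

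The neurofilament genes did not move as one. Nefm was higher in gut-draining than in inguinal nodes by 2.60 ± 0.18 (adjusted p = 9.75e-10), whereas Nefh was lower by -0.63 ± 0.09 (adjusted p = 9.98e-06). Nefl did not pass the filter and was above 0.05 CPM in the duodenal libraries only, with 0.313 CPM in library 3. Hand2, a transcription factor gene of sympathetic and enteric neurons that is also active in mesenchyme, was higher in gut-draining nodes by 4.35 ± 0.45 (adjusted p = 2.59e-07). Phox2a, an autonomic neuron factor, did not pass the test (0.23 ± 0.45, adjusted p = 0.768). In duodenal library 3, the highest in Npy, the synaptic gene Snap25 stood at 0.944 CPM and the neuropeptide gene Vip at 1.83 CPM, against at most 0.289 and 0.327 CPM in the other duodenal libraries, both chosen for mention after their values were seen.

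Among other genes of the noradrenaline pathway, Ddc and Slc18a2 were above the floor in every library, while Pnmt did not pass the filter. Of 14, 13 were tested and 9 differed among the 5 positions (35.7% of all genes), and between gut-draining and inguinal nodes 1 was higher and 5 lower (13.4% and 12.9% of all genes). Ddc, the decarboxylase acting after tyrosine hydroxylase and also made outside neurons, held 2.93, 3, 2.83 and 2.39 CPM in duodenal libraries and 0.871 to 1.03 CPM in ceco-colonic ones, a log2 difference of 1.53 ± 0.13 (adjusted p = 1.04e-07). Its 4 duodenal libraries were close to one another, and without libraries 2 and 3 the difference was 1.47 (adjusted p = 8.62e-06). Slc6a2, the noradrenaline transporter, was the one higher in gut-draining nodes (1.84 ± 0.49, adjusted p = 0.00743), and its highest library was duodenal library 3 (1.42 CPM). Slc18a2, the vesicular monoamine transporter also carried by mast cells and platelets, had a difference of -0.08 ± 0.08 between gut-draining and inguinal nodes that did not pass the test (adjusted p = 0.497). It was higher in the duodenal than in the ceco-colonic node by 0.38 ± 0.10 (adjusted p = 0.0118), a call lost without duodenal libraries 2 and 3 (0.40, adjusted p = 0.0537). Its relative Slc18a1 had the lowest difference of the list (-0.50 ± 0.09, adjusted p = 0.000164). The other counts of the list were 5 higher and 2 lower between small intestinal and ceco-colonic nodes (8.9% and 7.74% of all genes), and 5 and 1 between the duodenal and ceco-colonic nodes (8.24% and 8.17%), where 1 and 0 were called without duodenal libraries 2 and 3. Over all genes that refit called 2497 between the duodenal and ceco-colonic nodes, against 4825 with all libraries.

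A list of receptors of noradrenaline and neuropeptide Y, which also holds the peptidase gene Dpp4, differed among the 5 positions in 11 of 12 tested (35.7% of all genes). Dpp4, not itself a receptor, was among those called (adjusted p = 9.02e-08) and is part of the counts given here. Between gut-draining and inguinal nodes 3 were higher and 6 lower (13.4% and 12.9% of all genes). Npy1r, the main vascular receptor of neuropeptide Y, held 21.2, 17.3, 19.7 and 19.6 CPM in inguinal and 10, 15.5, 16.3 and 10.8 CPM in duodenal libraries, against 4.65 to 7.19 CPM in the other 3 gut positions. It was thus lower in gut-draining nodes by -1.48 ± 0.10 on the log2 scale (adjusted p = 9.35e-10), and the duodenal node, where its ligand gene was highest, was the highest of the gut positions. Adrb3, the adipocyte adrenoceptor, had the highest difference (1.85 ± 0.57, adjusted p = 0.0197) and Npy4r the lowest (-2.52 ± 0.50, adjusted p = 0.000683).

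Of 21 neurotrophic factor and receptor genes tested, 17 differed among the 5 positions (35.7% of all genes), and 10 were higher and 3 lower in gut-draining than in inguinal nodes (13.4% and 12.9% of all genes). Slit2, an axon guidance factor, had the highest difference (2.62 ± 0.28, adjusted p = 4.25e-07) and Ntrk2, the receptor of brain-derived neurotrophic factor, the lowest (-1.31 ± 0.17, adjusted p = 4.38e-06). Between small intestinal and ceco-colonic nodes 6 were higher and 3 lower (8.9% and 7.74% of all genes). Relatives of the 8 genes by family, S100 proteins, intermediate filaments and ubiquitin hydrolases among them, differed among the 5 positions in 16 of 20 tested (35.7% of all genes), with 4 higher and 6 lower in gut-draining nodes (13.4% and 12.9%). Vim, the mesenchymal filament gene, had the smallest p (adjusted p = 1.25e-10), and S100a4 the lowest difference (-1.25 ± 0.13, adjusted p = 2.54e-07).

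Several of the 8 genes are also made outside nerves, Sox10 and S100b by melanocytes, S100b by adipocytes, and Uchl1 and Npy by endocrine cells, so markers of these cells were read in the same libraries. The 9 melanocyte markers summed to 93.2 to 99.2 CPM in inguinal and 101 to 162 CPM in gut libraries, most of it Kit, which mast cells and progenitors share. Tyr, the pigment enzyme tyrosinase, differed most by p among the 5 positions (adjusted p = 9.35e-08), at 1.74 to 2.91 CPM in duodenal, 2.75 to 4.86 CPM in jejunal and ileal and 0.217 to 0.701 CPM in ceco-colonic libraries. Between gut-draining and inguinal nodes Tyr was not called (log2 difference -0.149, adjusted p = 0.625). The part of melanocytes in the Sox10 and S100b levels was not tested. Mlana, a melanosome gene, was lower in gut-draining than in inguinal nodes (-2.81 ± 0.25, adjusted p = 3.51e-08), Kit was higher (0.54 ± 0.10, adjusted p = 0.000275), and Tyrp1 was at 0 in 14 of the 20 libraries. The 12 endocrine markers summed to 0.582 to 1.76 CPM, and of the 5 tested only the granin gene Chgb was called among the 5 positions (adjusted p = 0.0021; 0.0622 without duodenal libraries 2 and 3), at 0.703 CPM in duodenal library 3 and at most 0.152 CPM elsewhere. All 12 adipocyte markers were called among the 5 positions (35.7% of all genes), with 2 higher and 1 lower in gut-draining than in inguinal nodes (13.4% and 12.9%). Lipe, the hormone-sensitive lipase, had the smallest p of them (adjusted p = 0.000467), and Cidea, a lipid droplet gene, the lowest difference (-2.64 ± 0.69, adjusted p = 0.00652). Keratinocyte and mammary markers summed to 8.88 to 27.3 CPM, skeletal muscle markers to 12.5 to 19.1, erythroid markers to 15.8 to 37.8 and platelet markers to 64.5 to 185 CPM over the 20 libraries.

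The genes most like each of the 6 in log2 CPM over the 20 libraries were taken among 13897 genes averaging at least 1 CPM, as a description with no test. For Sox10 they were Cadm4 (Pearson 0.989, Spearman 0.992), Kcna1 (0.982, 0.971) and Sfrp5 (0.979, 0.991). For S100b they were Mal (0.968, 0.946), Abca8b (0.956, 0.953) and Gjc3 (0.951, 0.854), of which Mal and Gjc3 are on the Schwann cell list. Cadm4 held 6.37, 34.6, 32.4 and 14.2 CPM in duodenal libraries and 0.715 to 2.05 CPM in inguinal ones, the ordering of Sox10 at a higher level, and without the 2 libraries farthest from the median its Pearson correlation was 0.984. For Prph the nearest genes were Col13a1 (0.927, 0.955), Cxcl13 (0.921, 0.931), the chemokine of B cell follicles made by stroma, and Tbx18 (0.916, 0.965), a mesenchymal transcription factor. Cxcl13 held 174 to 235 CPM in inguinal and 4.68 to 19.7 CPM in jejunal libraries.

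For Uchl1 the nearest genes were Mylk4 (0.936, 0.52), Pls3 (0.929, 0.567) and Sdc2 (0.914, 0.657). Mylk4 held 14.3 CPM in duodenal library 2, 17 CPM in library 3 and at most 0.753 CPM elsewhere, and without these 2 libraries the Pearson correlations were 0.564, 0.641 and 0.757. The likeness of Uchl1 to Mylk4 and Pls3 thus rested largely on 2 libraries, whereas that of Prph to Col13a1 did not (0.928 over 18 libraries). For Npy the nearest genes were Scrn1 (0.781, 0.662), Hspg2 (0.773, 0.701) and Sdc2 (0.77, 0.614), and for Gfap Kcnh2 (0.663, 0.535), Rbm11 (0.643, 0.523) and Gstm7 (0.63, 0.499). These were lower than for the other 4 genes, and that of Gfap with Kcnh2 was 0.404 without the 2 farthest libraries. Among the 28 pairs of the 8 genes, Npy and Uchl1 had a Pearson correlation of 0.702 over 20 libraries but 0.035 over the 16 outside the duodenal node. Sox10 and Prph had -0.41 over 20 and -0.68 over those 16 libraries (Spearman -0.469 and -0.641). Over the 16 gut libraries, duodenal ones included, their correlation was weaker (Pearson -0.209, Spearman -0.2).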

How the data were processed

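Expected counts per gene and transcript tables of estimated counts and TPM were deposited by the authors for 20 libraries. Per the labels' protocols, RNA was taken with the PicoPure kit and polyA libraries were made with NEBNext. The submitters' processing notes name kallisto, limma, edgeR, GRCm39 and mm10 without roles; strand use is not stated there. The gene table matched length-scaled TPM sums within 0.01 log2 for 99.4% of values (plain sums, 28.8%; 12542 genes with at least 500 counts). Counts were rounded, filtered (edgeR filterByExpr, minimum count 10, total 15), TMM-scaled and fitted in 1 edgeR 4.0.16 quasi-likelihood model (R 4.3.3) with 1 mean per position. A call is an adjusted p under 0.05 (Benjamini-Hochberg, 29411 genes). In simulated counts for the duodenal against ceco-colonic comparison over 29411 genes, 30% of 2-fold and 88% of 4-fold changes were recovered at 0.05 to 1 CPM, and 98% of each at 1 CPM or more. Log2 CPM for correlations used a prior count of 2.

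The 8 genes and all lists were chosen with earlier results of these data known. Besides the 8, a list's named genes are the called gene with the smallest p among the 5 positions, those with the highest and lowest gut-draining against inguinal difference, and a fixed set close to the 8 (Ddc, Slc18a2, Slc6a2, Phox2a, Hand2, Mbp, Tubb3, Elavl4, the neurofilament genes, Adipoq, Npy1r and Ngfr); keratinocyte, muscle, erythroid, platelet, leukocyte and reticular lists are given as sums. The 3 most correlated genes of each were also named, and others were chosen after their values were seen. Some genes this rule would name are not reported here. Alternatives were DESeq2 1.42.0, limma-voom 3.58.1, other size factors, no filter, transcript sums, an adipocyte covariate, a replicate block, fewer groups and libraries left out.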

Additional observations from a re-analysis of the deposited data

Results flagged for a closer look

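Within groups of 4 libraries, the highest or lowest was set against Dixon's 95% critical value. Of 109 groups over 22 genes, 14 passed it, where chance alone passes about 1 group in 20. Among the 8 genes, a library stood far above the other 3 of its position for Sox10 in jejunal library 2 (4.35 CPM), Gfap in duodenal library 2 (0.841 CPM), Npy in duodenal library 3 (0.788 CPM) and Npy in inguinal library 3 (0.0868 CPM). Th stood apart in ileal library 1 (0.00465 CPM) and ceco-colonic library 3 (0.0182 CPM), where the other 3 libraries held 0. With 3 libraries at 0 any count passes, as for Nefl in ceco-colonic library 4, so these 3 groups say nothing about spread, and the ileal value is 1 estimated count. Gfap was low in ceco-colonic library 4 (0.159 CPM).

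Inguinal library 2 stood apart in the myelin gene Mbp (116 CPM). Duodenal library 3 stood apart in Nefl (0.313 CPM) and Phox2a (0.148 CPM), ileal library 4 in Phox2a (0.108 CPM), ceco-colonic library 1 in Elavl4 (0.245 CPM) and ceco-colonic library 4 in Nefl (0.0116 CPM). Jejunal library 2 stood apart in Adipoq (163 CPM).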

How the results depend on the processing

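The 6 genes in 14 comparisons gave 84 results and 2502 values under alternatives; 2403 kept direction and call, 68 lost the call, 31 gained one and 0 changed direction. Of the 84 results, 52 kept their call throughout. Without duodenal libraries 2 and 3, an alternative added after seeing the data, the number of genes called was 3 among the 5 positions and 3 among the 4 gut positions (5 in each case), 1 for duodenal against jejunal (3), 1 against ileal (4), 2 against ceco-colonic (4) and 3 against inguinal (5). Between jejunal and ileal nodes, where Prph alone was called, 0 were called with no filter, transcript sums, limma-voom, the adipocyte covariate, the replicate block, only the groups compared, or without duodenal libraries 1 and 2. The adipocyte level differs between positions, so a fit with it as a covariate cannot fully tell it from position. With the adipocyte covariate 1 was called for gut-draining against inguinal (2), 1 for jejunal against ceco-colonic (3), 1 for jejunal against inguinal (2) and 2 for ceco-colonic against inguinal (1). Limma-voom called 1, 1 and 1 in the first 3 of these. With only the groups compared the counts were 0 for duodenal against jejunal, 3 for ileal against ceco-colonic (1) and 2 for ceco-colonic against inguinal (1). For ileal against ceco-colonic, DESeq2 called 2, as did the fit without duodenal libraries 1 and 2. Transcript sums called 2 for ileal against inguinal (1). The shares of all genes given earlier belong to the main fit, so these counts are not read against them.

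Leaving out 1 library at a time gave 4 to 5 calls among the 5 positions, 4 to 5 among the 4 gut positions, 1 to 2 for gut-draining against inguinal, 3 to 3 for small intestinal against ceco-colonic, 1 to 3 for duodenal against jejunal, 3 to 5 against ileal, 3 to 4 against ceco-colonic and 5 to 6 against inguinal, 0 to 1 for jejunal against ileal, 2 to 3 against ceco-colonic and 1 to 2 against inguinal, 1 to 3 for ileal against ceco-colonic and 1 to 2 against inguinal, and 1 to 1 for ceco-colonic against inguinal. S100b between duodenal and jejunal nodes lost its call without duodenal library 2 (adjusted p = 0.129) or 3 (0.0693) and without jejunal library 1 (0.0654), 3 (0.0977) or 4 (0.107). Same-number libraries of different positions had r over 0.1 in 31 of 40 pairs (median 0.216, against -0.068 for different numbers), and 13 of 20 libraries matched their own number best. This hints at a shared source, but the labels state none and 9 pairs did not reach 0.1, so the number was not used as a pairing. With the replicate block Npy was also called between duodenal and jejunal nodes (2.35, adjusted p = 0.0325), making 4. Over all genes, counts moved by more than 1.5 times between duodenal and jejunal (831; 0 with only these groups, 1694 in DESeq2), duodenal and ileal (4297; 1267 without duodenal libraries 1 and 2) and duodenal and ceco-colonic nodes (4825; 2497 without duodenal libraries 2 and 3). The same held for jejunal against ileal nodes (20; 2 with only these groups, 96 in DESeq2). With the adipocyte covariate the counts were 2865 for small intestinal (4894), 1752 for jejunal (3586) and 1460 for ileal (3750) against ceco-colonic nodes. Except where stated, the cause of a changed call was not tested. At 0.05 to 1 CPM, where Gfap and duodenal Npy lie, 30% of simulated 2-fold duodenal against ceco-colonic changes were recovered.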
